A study of Homo sapiens with 6 samples.

Results

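The nuclear respiratory chain genes are 57 genes of the nuclear genome that encode protein subunits of complexes I, II, III and IV of the mitochondrial electron transport chain. They were taken by gene symbol from a table of 58364 rows with values, and all 57 were found and passed the filter on low values. Of these, 36 belong to complex I, 4 to complex II, 7 to complex III and 10 to complex IV. The rule for members uses symbols only, but it was set with earlier results of these data known, and for SDHD, which stands on more than 1 row, the row with the highest mean was taken.

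The libraries are bulk RNA-seq of cells made from H1, an established human embryonic stem cell (hESC) line, at day 8 of hematopoietic differentiation. WT cells gave 2 libraries, WT replicate 1 and WT replicate 2. MSX2_KO cells (MSX2-/-) gave 4 libraries, which are replicates 1 and 2 of the clones 1# and 2#, in which exon 2 of MSX2, a homeobox transcription factor gene, had been targeted by lentiviral CRISPR/Cas9 before single cells were grown out into lines. The questions asked of these genes were whether their RNA differed between MSX2_KO and WT, which is the comparison of the study, and whether it differed between replicate 2 and replicate 1, since each replicate number runs through all 3 lines and carries its own set letter in the labels. The labels name CD31+ cells for the MSX2_KO libraries only, whereas the study describes CD31+ cells for both genotypes, and a growth protocol in the labels that speaks of HAND1 overexpression is not part of the study's description. Each clone is 1 edited line, so a difference between genotypes and a difference between lines cannot be told apart, and although the study speaks in general terms of independent experiments, no source ties this to the replicates of a line in these libraries.

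Mitochondria make most of the ATP of many cells by passing electrons along the respiratory chain. Complex I takes electrons from NADH and complex II takes them from succinate, the latter also being an enzyme of the tricarboxylic acid (TCA) cycle. Complex III passes them to cytochrome c, and complex IV hands them to oxygen, while complexes I, III and IV pump protons that drive ATP synthase, also called complex V. A small set of core subunits is encoded by mitochondrial DNA (mtDNA), and the far larger number of remaining subunits is encoded in the nucleus, translated in the cytosol and imported. Hematopoietic progenitors arise in culture from endothelial-like cells, and blood stem cells are known for relying more on glycolysis than many differentiated cells do.

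Many promoters of nuclear respiratory chain genes are known to hold sites for the factors NRF1, GABPA (an ETS factor, also called NRF2) and YY1, so the letters of these sites were searched. RefSeq windows of 250 bases before to 50 bases after the start of each gene, in the build GRCh38.p14, were matched by symbol for 49 of the 57 members, and for NDUFB5, NDUFB9, NDUFC2, NDUFS5, SDHC, UQCRB, CYC1 and COX6C none was used. Both strands were searched, and none of the 3 strings is contained in another. The NRF1 string, which is GCGC, any base and then TGCGC, stood in the windows of 10 of the 49 members, 20.4%, against 6.98% of all 27305 genes with a window. CCGGAAGT (ETS) stood in 7 members, 14.3%, against 4.95% of all genes, and AAGATGGCG (YY1) in 8 members, 16.3%, against 2.14% of all genes. A match of letters is a description of the sequence and does not show that a factor was bound.

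The stretches that follow belong to members whose RNA is described further on as higher in replicate 2, and to UQCRH, which had the lowest p between MSX2_KO and WT. They show the matched letters in capitals, read 5′ to 3′ on the strand of the gene. A match to CCGGAAGT on the opposite strand reads ACTTCCGG. NDUFS1 is shown at chr2:206159584-206159613 on the minus strand, with the match from -158 to -151 relative to the start. UQCRQ is shown at chr5:132866577-132866606 on the plus strand, with the match from -54 to -47. UQCRH is shown at chr1:46303640-46303669 on the plus strand, with the match from -47 to -40. COX8A is shown at chr11:63974590-63974619 on the plus strand, with the match from -19 to -12. These are the ETS matches.
NDUFS1: aggctggggccACTTCCGGcggaactgcgg
UQCRQ: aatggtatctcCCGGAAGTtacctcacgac
UQCRH: gagtgtgccgcACTTCCGGccagatcgccg
COX8A: ccagctccagaACTTCCGGccagcgcagcc
NDUFA11 held an NRF1 match from -98 to -89, at chr19:5903869-5903898 on the minus strand.
NDUFA11: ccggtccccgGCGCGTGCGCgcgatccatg
The YY1 matches of all 8 members lay after the start. Their letters include ATG, and whether they overlap a translation start was not examined. In SDHB the match ran from 11 to 19 (chr1:17054003-17054032, minus strand), in NDUFS7 from 18 to 26 (chr19:1383914-1383943, plus strand) and in NDUFA6 from 26 to 34 (chr22:42090728-42090757, minus strand).
SDHB: gtcaggagccAAGATGGCGgcggtggtcgc
NDUFS7: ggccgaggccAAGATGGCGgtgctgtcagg
NDUFA6: atgctttggcAAGATGGCGgggagcggcgt

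All 57 members were expressed in every library. Values are FPKM, that is fragments counted per kilobase of transcript and scaled to the mapped fragments of the library, a scale that allows genes to be compared per length. Mean FPKM over the 6 libraries ran from 11.7 for COX7B to 569 for COX7C, with a median of 97.0, and 27 members had a mean over 100 while 5 had one under 25. Complex IV genes stood highest, with a median of 192 FPKM, followed by complex III at 107, complex I at 79.1 and complex II at 30.9. Together the members made up between 1.14% and 1.22% of the summed FPKM of a library.

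**Figure D1:**
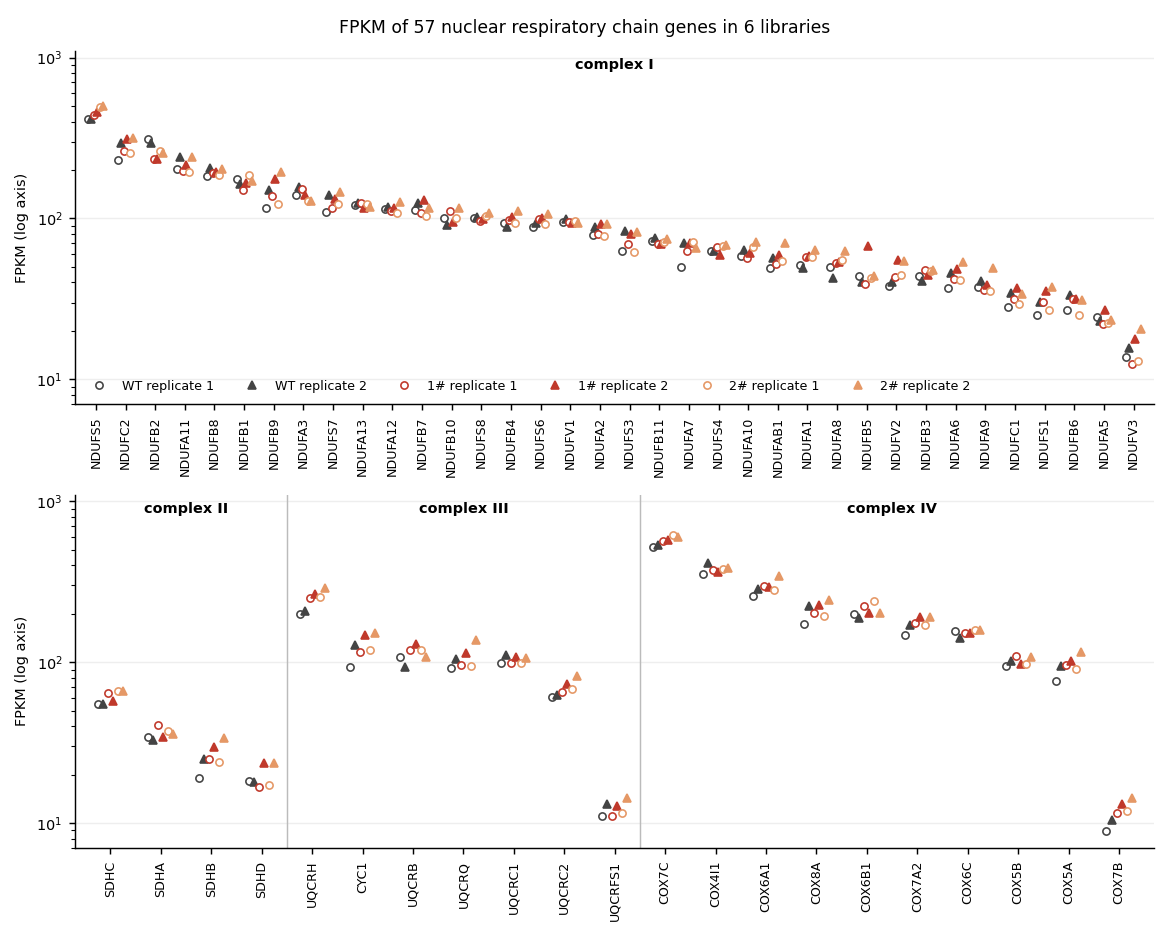
FPKM (log axis) of each of the 57 genes in each of the 6 libraries, by complex and in order of the mean over libraries; open circles are replicate 1, filled triangles replicate 2, and colours mark WT, 1# and 2#. The spread between genes, from 11.7 FPKM for COX7B to 569 FPKM for COX7C, is far wider than the spread between libraries of any 1 gene.

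Genes of the same complex differed widely in level although the proteins are assembled together. In complex IV, COX7C, a small structural subunit, stood at 520 and 537 FPKM in the WT libraries and between 569 and 614 in the MSX2_KO libraries. COX7B, another small subunit of the same complex, stood at 8.93 and 10.5 FPKM in WT and between 11.6 and 14.3 in MSX2_KO. In complex III, UQCRFS1, the Rieske iron-sulfur protein, ran from 11.04 to 14.4 FPKM over the 6 libraries, and UQCRH, the hinge protein that contacts cytochrome c1, ran from 200 to 288. The ranges of these pairs did not overlap.

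Some levels carry reads that could belong to near-identical copies. For 32 members the table has rows named as their pseudogenes, 110 rows in all, and for 5 members these rows summed to over 5% of the gene's own mean FPKM. SDHA, the flavoprotein of complex II, had the largest share, with 13.8 FPKM over its pseudogene rows against 35.8 for the gene itself, and NDUFV2 had 4.10 against 45.9. UQCRHL, a retrocopy of UQCRH, was listed at 1.07 FPKM on average against 244 for UQCRH. SDHD stands on 2 rows, with means of 19.6 and 12.1 FPKM, and the first was used.

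None of the 57 members passed the test between MSX2_KO and WT in the main fit, which left the replicate number out. With the replicate number as a block 2 members passed, as given below. Differences are given as log2(FPKM + 1) of MSX2_KO minus WT with a standard error (SE), from limma fitted to the 15895 genes whose mean reached 0.5 FPKM, with p-values adjusted over all of them (Benjamini-Hochberg) and 0.05 as the threshold. Over all genes tested, 1.28% were called in this comparison, 0.963% higher and 0.321% lower. At an unadjusted p under 0.05, 2 of the 57 members passed, UQCRH and NDUFB2, against 11.8% of all genes. In these bulk samples a lower value can come from fewer cells of a type or from less RNA per cell, and the 2 cannot be told apart.

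The fitted difference was above 0 in 44 members and below 0 in 13, and its median was 0.13, against 0.01 over all genes tested. Among the 6447 genes with a mean between those of COX7B and COX7C, a range chosen after the members' values were seen, the median was 0.001. By complex the median was 0.06 in complex I, 0.17 in complex II, 0.22 in complex III and 0.16 in complex IV. Without WT replicate 1 the median was 0.04, against 0.03 for all genes, and without 2# replicate 2 it was 0.07. With the replicate number as a block, a combination added after the data were seen, leaving out 1 library at a time gave medians from 0.097 to 0.138, so the drop did not hold in that fit. With values rescaled to a fixed total per library (TPM) it was 0.07, with 36 of 57 members above 0. The 95% interval of the difference lay within 1 log2 unit of 0 for all 57 members and within 0.5 for 38, so a 2-fold difference in either direction lay outside every interval of this fit. The intervals measure the spread between these libraries, which may be technical, and not the spread between lines.

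**Figure D2:**
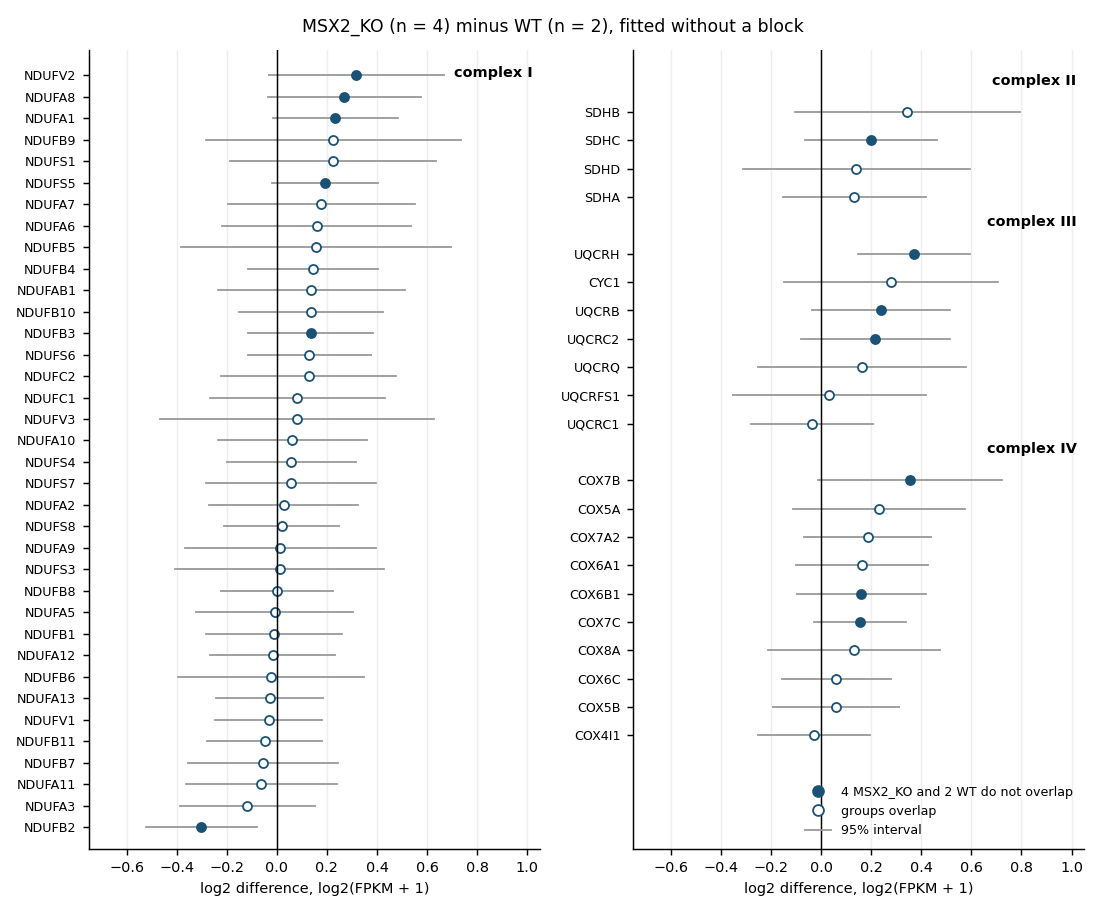
Fitted log2 difference of MSX2_KO (n = 4) minus WT (n = 2) for each member with its 95% interval, by complex; filled points mark members whose 4 MSX2_KO libraries all lie on one side of both WT libraries. Filled points lie right of 0 for 12 members and left of 0 for NDUFB2 alone, and the intervals of all but UQCRH and NDUFB2 span 0.

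In complex III, UQCRH stood at 200 and 209 FPKM in WT and at 251, 266, 254 and 288 in MSX2_KO, and all 4 knockout libraries were above both WT libraries. Its means were 204 ± 6.1 FPKM (SD, n = 2) and 265 ± 17 (SD, n = 4), a ratio of 1.30, and the log2 difference was 0.37 ± 0.09 (SE; adjusted p = 0.161). When replicate number was added as a block, this difference had an SE of 0.06 and passed (adjusted p = 0.0158). CYC1, cytochrome c1, the heme protein that hands electrons to cytochrome c, stood at 93.4 and 127 FPKM in WT and at 116, 148, 119 and 152 in MSX2_KO. The groups of CYC1 overlapped, but each knockout library was above the same-numbered WT library, and its log2 difference of 0.28 ± 0.18 had an adjusted p of 0.657 without the block and 0.0359 with it, where the SE was 0.06. These were the 2 members called with the block, both higher, against 9.85% of all genes called either way, 6.11% higher and 3.74% lower. In that fit with 1 library left out at a time, UQCRH was called in 2 of 6 runs and CYC1 in 0 of 6. At an unadjusted p under 0.05 the blocked fit passed 18 members, 31.6%, against 26.7% of all genes. The blocked calls also depended on other settings. NDUFB2 was called lower, beside UQCRH and CYC1 higher, with 0.1 as pseudocount, median-ratio scaling, TPM or a minimum mean of 5 FPKM. These fits called between 9.84% and 16.2% of all genes. With the minimum of 5, NDUFV2, SDHB and COX7B were called higher too. Without a filter or without the trend 0 members were called, beside 1.69% and 7.27% of all genes.

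The other complex III genes gave no call. UQCRC1, a matrix-facing subunit counted here as accessory, was close to equal, with 99.4 and 111 FPKM in WT and between 98.2 and 107 in MSX2_KO, a log2 difference of -0.04 ± 0.10. UQCRFS1 had a log2 difference of 0.03 ± 0.16. UQCRB and UQCRC2 were each above both WT libraries in all 4 knockout libraries, with log2 differences of 0.24 and 0.22.

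All 4 complex II genes had differences above 0, between 0.13 and 0.35, without a call. SDHB, the iron-sulfur subunit, stood at 18.9 and 24.9 FPKM in WT and at 24.99, 29.7, 24.1 and 33.6 in MSX2_KO, a log2 difference of 0.35 ± 0.19 (adjusted p = 0.572, and 0.0524 with the block). The lowest knockout value lay just under the higher WT value. SDHA had a log2 difference of 0.13 ± 0.12, and SDHC, a membrane anchor, was at 55.0 and 55.2 FPKM in WT and between 57.3 and 66.6 in MSX2_KO.

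In complex IV, COX7B had the highest difference, 0.36 ± 0.15 (adjusted p = 0.442, and 0.0582 with the block), with the values given above not overlapping between the groups. COX4I1, one of the first nuclear subunits to join the complex, had the lowest, -0.03 ± 0.09, with 355 and 416 FPKM in WT and between 365 and 387 in MSX2_KO. COX5A, which joins at the same step, had a log2 difference of 0.23 ± 0.14, and COX7C one of 0.16 ± 0.08. In COX7C the 4 knockout libraries were all above the 2 WT libraries.

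Complex I gave the widest range. NDUFV2, a flavoprotein-module subunit with an iron-sulfur cluster, was highest, with 38.0 and 40.3 FPKM in WT and 43.4, 55.3, 44.2 and 54.4 in MSX2_KO, a log2 difference of 0.32 ± 0.15 (adjusted p = 0.486, and 0.0576 with the block). NDUFB2, a small accessory subunit of the membrane arm, was lowest, with 313 and 294 FPKM in WT and 234, 236, 263 and 254 in MSX2_KO. It was the 1 member with all knockout libraries below both WT libraries, at -0.30 ± 0.09 on the log2 scale (adjusted p = 0.251, and 0.0514 with the block). NDUFV1, which binds NADH, stood at 95.1 and 99.1 FPKM in WT and between 93.5 and 96.8 in MSX2_KO, a log2 difference of -0.03 ± 0.09. NDUFS1, the largest subunit of the complex, had a difference of 0.22 ± 0.17, and NDUFAB1, the mitochondrial acyl carrier protein, one of 0.14 ± 0.16.

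Across the complexes, 12 of 57 members had all 4 knockout libraries above both WT libraries, 21.1%, where 12.1% of all genes tested did, and 1 of 57 had all 4 below, where 9.19% of all genes did. In 27 members, 47.4%, all 4 knockout libraries were above the same-numbered WT library, against 23.6% of all genes, and in 3 members, 5.26%, none was, against 21.5%. The 27 comprised 12 of 36 complex I genes, 3 of 4 complex II genes, 5 of 7 complex III genes and 7 of 10 complex IV genes.

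Between replicate 2 and replicate 1, 15 members were called, and all 15 were higher in replicate 2. The fit held genotype as a covariate and compared 3 libraries with 3. It called 34.6% of all genes, 15.6% higher and 18.9% lower, so that 15 of 57 higher calls, 26.3%, stand beside 15.6%, and 0 lower calls beside 18.9%. Among the 6447 genes of like level, 26.2% were called higher and 18.6% lower, so the share of higher calls among the members was close to that of genes of their level. At an unadjusted p under 0.05, 24 members passed, 42.1%, against 46.3% of all genes. The calls fell on 10 complex I genes, 1 complex II gene, 2 complex III genes and 2 complex IV genes.

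The median log2 difference of the members, replicate 2 minus replicate 1, was 0.13, with 44 above 0 and 13 below, against -0.03 for all genes and 0.06 for genes of like level. It was 0.11 in complex I, 0.12 in complex II, 0.16 in complex III and 0.11 in complex IV. The 12 members assigned to the catalytic core of their complex, none of them in complex IV, had a median of 0.25 and 6 calls, 50%. The 45 accessory members had a median of 0.11 and 9 calls, 20%. These shares stand beside 15.6% of all genes and 26.2% of genes of like level called higher. The difference between core and accessory members was not tested. In 19 members all 3 libraries of replicate 2 were above all 3 of replicate 1, 33.3% against 18.8% of all genes, and in no member were all 3 below, which held for 22.7% of all genes. In 30 members, 52.6%, the difference was above 0 within each of WT, 1# and 2#, against 28.6% of all genes. In 2 members, 3.51%, which were SDHA and COX6B1, it was below 0 in all 3 lines, against 33.8% of all genes. The shares of these patterns among genes of like level were not determined.

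**Figure D3:**
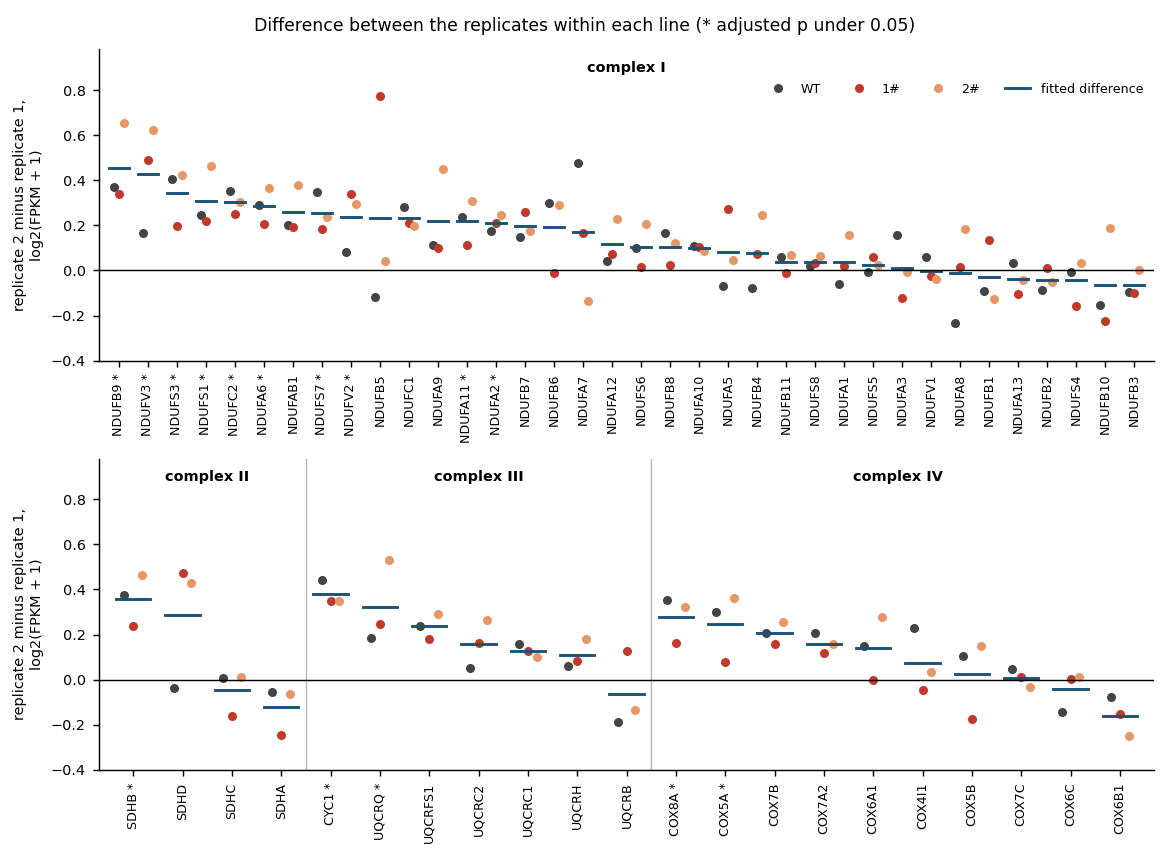
Difference of log2(FPKM + 1), replicate 2 minus replicate 1, within WT, 1# and 2# (points) and the fitted difference over the 3 lines (bars), for each member by complex; an asterisk marks an adjusted p under 0.05. The 15 marked genes have all 3 points above 0.

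CYC1 had the lowest adjusted p of the members. It stood at 93.4, 116 and 119 FPKM in the replicate 1 libraries of WT, 1# and 2# and at 127, 148 and 152 in replicate 2. Replicate 2 was higher in each line, by 1.36-fold, 1.28-fold and 1.28-fold, and no replicate 2 library overlapped replicate 1. The log2 difference was 0.38 ± 0.06 (SE, adjusted p = 0.00486).

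NDUFC2, an accessory subunit of the complex I membrane arm, stood at 230, 261 and 256 FPKM in replicate 1 and at 294, 310 and 316 in replicate 2, a log2 difference of 0.30 ± 0.05 (adjusted p = 0.00695). NDUFB9, another membrane-arm subunit, stood at 117, 138 and 124 FPKM and at 151, 175 and 196, the widest difference of any member at 0.45 ± 0.08 (adjusted p = 0.00726). In both genes the replicates did not overlap. NDUFB9, NDUFC2 and CYC1 were the members called with each of the 6 libraries left out in turn. Of the other called members, NDUFS1 and UQCRQ were called in 0 of 6 such runs. NDUFA6, NDUFA11, NDUFS7 and COX5A were called in 1 of 6, and the rest in 2 to 4.

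NDUFS3, a core subunit of the arm that reaches into the matrix, stood at 62.6, 69.5 and 61.4 FPKM in replicate 1 and at 83.4, 80.0 and 82.7 in replicate 2 (log2 difference 0.34 ± 0.07, adjusted p = 0.0146). NDUFA6, an accessory subunit of the same arm whose start region is printed above, stood at 37.2, 41.8 and 41.6 FPKM and at 45.7, 48.3 and 53.9 (0.29 ± 0.07, adjusted p = 0.0231). The other complex I calls were NDUFA2, NDUFA11, NDUFS1, NDUFS7, NDUFV2 and NDUFV3, with log2 differences from 0.21 for NDUFA2 to 0.43 for NDUFV3. NDUFV1, which pairs with NDUFV2 in the NADH-oxidising module, showed -0.00 ± 0.06, with a 95% interval from -0.14 to 0.13, and NDUFAB1 0.26 ± 0.08 (adjusted p = 0.0578).

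In complex II, SDHB was called alone, at 18.9, 24.99 and 24.1 FPKM in replicate 1 and 24.9, 29.7 and 33.6 in replicate 2 (log2 difference 0.36 ± 0.08, adjusted p = 0.0165). SDHA, its partner in the matrix part of the enzyme, stood at 34.2, 40.6 and 37.3 FPKM and at 32.8, 34.1 and 35.7, a log2 difference of -0.12 ± 0.07. The subunits of 1 enzyme thus had differences of opposite sign, of which that of SDHA did not pass. SDHA was also the member with the largest pseudogene share, as given above. Its difference was -0.06 with median-ratio scaling and -0.18 with TPM. SDHD, a membrane anchor, was level within WT, at 18.4 and 17.9 FPKM, and was 16.7 and 23.6 FPKM in replicates 1 and 2 of 1# and 17.3 and 23.7 in those of 2#. On the second SDHD row, which was not used for the tests given here, the values were 10.1 and 15.2 FPKM in WT, 15.4 and 10.9 in 1# and 7.06 and 14.2 in 2#, so the rows differed in direction within 1#, and WT was not level there. On the row used, the interaction of genotype and replicate, 0.49 on the log2 scale, did not pass (adjusted p = 0.368).

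UQCRQ, a small complex III subunit, stood at 91.7, 96.5 and 94.8 FPKM in replicate 1 and at 104, 115 and 137 in replicate 2 (log2 difference 0.32 ± 0.09, adjusted p = 0.0350). UQCRC1 and UQCRFS1 had log2 differences of 0.13 ± 0.05 and 0.24 ± 0.09 and were not called. UQCRH, the member with the lowest p between genotypes, had a replicate difference of 0.11 ± 0.06. CYC1 was thus called between replicates and UQCRH was not (adjusted p = 0.181).

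In complex IV, COX8A, a small subunit of the membrane part, stood at 174, 203 and 193 FPKM in replicate 1 and at 222, 227 and 242 in replicate 2 (log2 difference 0.28 ± 0.06, adjusted p = 0.0152). COX5A stood at 76.9, 96.2 and 90.2 FPKM and at 95.01, 102 and 116 (0.25 ± 0.07, adjusted p = 0.0447), with the ranges overlapping. COX6B1, named after its values were seen, was at 199, 225 and 241 FPKM in replicate 1 and at 189, 202 and 202 in replicate 2, a log2 difference of -0.16 ± 0.06 (adjusted p = 0.0795). COX4I1 and COX7C had log2 differences of 0.07 ± 0.07 and 0.01 ± 0.05.

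The number of members called depended on the libraries in the fit. It was 9 when either WT library was left out, where 13.5% (replicate 1 left out) and 13.3% (replicate 2 left out) of all genes were called higher. It was 5 without 1# replicate 1 and 10 without 1# replicate 2, beside 9.43% and 9.59% of all genes, and 3 without either library of 2#, beside 9.34% without its replicate 1 and 8.29% without its replicate 2. Within the 4 MSX2_KO libraries alone it was 8, or 14.0%, against 13.3% of all genes called higher and 29.3% called either way. All member calls of these fits were higher. With values rescaled to TPM 9 members were called higher and COX6B1 lower, beside 12.9% of all genes called higher, and with median-ratio scaling 21 were called higher, beside 19.1%.

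Of the 57 members, 0 passed the limma test of whether the replicate difference itself differed between WT and MSX2_KO, against 0.0189% of all genes, and 2, SDHD and NDUFA7, had an unadjusted p under 0.05, 3.51% against 11.4% of all genes.

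Promoter letters and replicate calls were set side by side. Of the 15 members called higher, 12 had a window and 7 of these, 58.3%, held at least 1 of the 3 strings. Of the other 42 members, 37 had a window and 15 held a string, 40.5%. The 2 shares are descriptions of windows around annotated starts and were not tested.

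Protein genes of mtDNA, which encode subunits of ATP synthase as well as of the chain, had a median log2 difference of -0.12 between replicates, beside 0.13 for the nuclear members. Of 13 such genes, 10 had values below 0 and 3 above. The calls were 3 lower, 23.1%, and 1 higher, 7.69%, beside 18.9% and 15.6% of all genes, and the difference between mtDNA and nuclear genes was not tested. MT-ND5, a proton-pumping subunit of complex I, stood at 705, 693 and 718 FPKM in replicate 1 and at 445, 444 and 448 in replicate 2. The replicates were far apart and the lines nearly equal (log2 difference -0.66 ± 0.05, adjusted p = 0.000983). MT-ND6 was at 1404, 1308 and 1550 FPKM and at 720, 719 and 629 (-1.04 ± 0.09, adjusted p = 0.00119). MT-ND6 is transcribed from the other strand of mtDNA than the remaining protein genes, and the labels name a library kit that does not mark strand, so reads of MT-ND6 and of RNA opposite to it cannot be told apart. MT-ND4 was also called lower (-0.27 ± 0.05) and MT-ND2 higher (0.34 ± 0.05), both adjusted p under the threshold, at 0.00745 and 0.00685. Between genotypes no mtDNA gene was called, with a median of 0.13, and with the block MT-ATP6, a gene of ATP synthase, was called higher (log2 difference 0.21, adjusted p = 0.0489).

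CYCS and several regulators of mitochondrial gene expression differed more between replicates than any member did. CYCS, which encodes the carrier between complexes III and IV, stood at 31.0, 39.6 and 38.5 FPKM in replicate 1 and at 59.0, 86.0 and 87.4 in replicate 2. Replicate 2 was 1.91-fold to 2.27-fold higher within the lines (log2 difference 1.06 ± 0.07, adjusted p = 0.000978), and with the block CYCS was also called higher in MSX2_KO (0.43 ± 0.08, adjusted p = 0.0213, and 0.832 without the block). NDUFA4, now counted as a complex IV subunit, was called higher in replicate 2 by 0.22 ± 0.06. Of 17 tested regulators of mitochondrial biogenesis, 8 were called higher, 47.1% beside 15.6% of all genes, and 1 lower. TFB2M, a transcription factor of mtDNA, stood at 3.10, 4.52 and 4.33 FPKM and at 7.59, 11.8 and 12.9 (1.22 ± 0.10), and PPRC1, a coactivator of the PGC-1 family, at 6.01, 6.18 and 5.72 and at 11.1, 15.5 and 15.3 (1.09 ± 0.12). Within the lines the ratio of replicate 2 to replicate 1 ran from 1.85 for PPRC1 in WT to 2.99 for TFB2M in 2#. TFAM, which packages mtDNA and starts its transcription, stood at 16.4, 14.0 and 14.4 FPKM and at 20.1, 28.3 and 28.4 (0.72 ± 0.14). TWNK, the mtDNA helicase, ESRRA, GABPB1, LONP1 and TEFM were the other calls upward, and TFB1M, which methylates mitochondrial ribosomal RNA, was called lower at -0.58 ± 0.13. Between genotypes no regulator was called without the block, and with it TFB2M was called higher in MSX2_KO (0.52 ± 0.11, adjusted p = 0.0374).

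**Figure D4:**
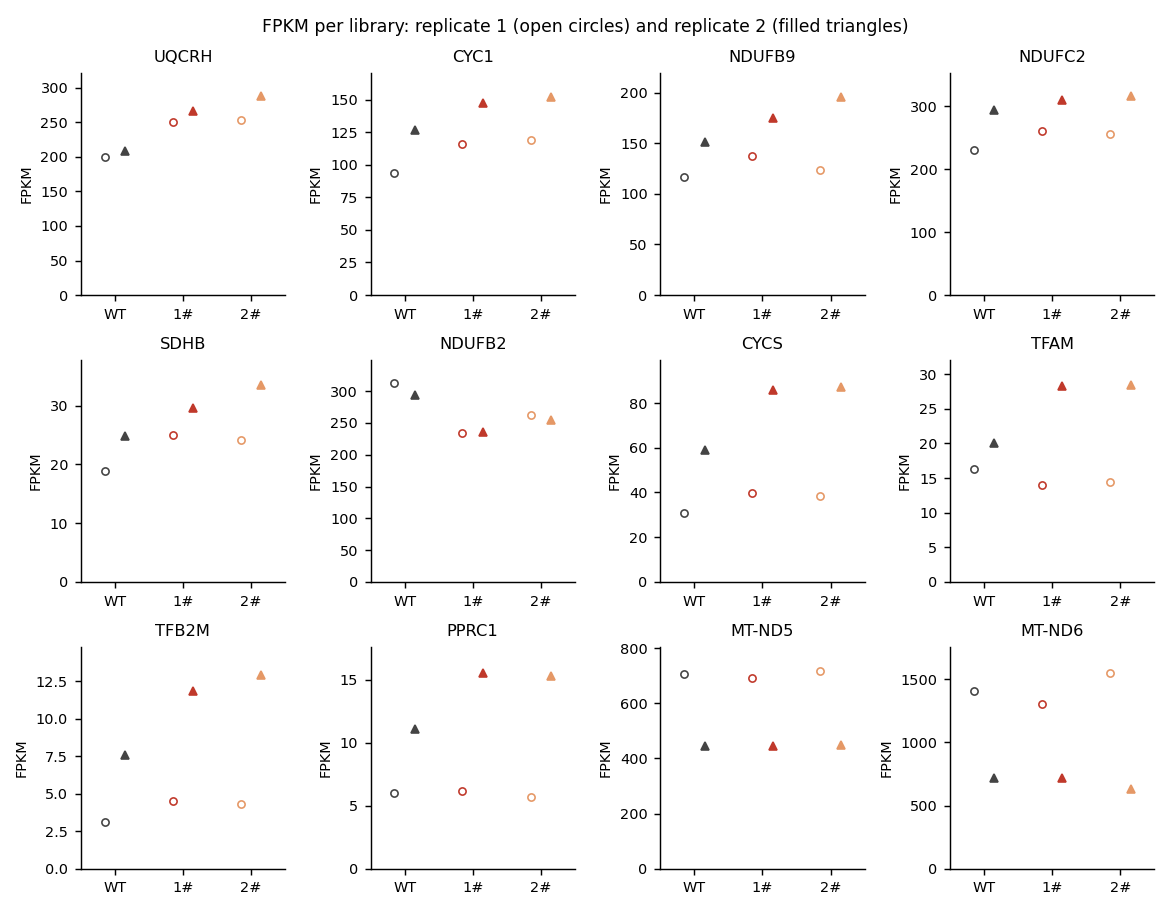
FPKM from 0 in each library for 6 members (UQCRH, CYC1, NDUFB9, NDUFC2, SDHB, NDUFB2) and 6 other genes of mitochondrial function, with replicate 1 as open circles and replicate 2 as filled triangles. MT-ND5 lies near 705 FPKM in replicate 1 and near 446 in replicate 2 in all 3 lines, while UQCRH and NDUFB2 are separated by genotype.

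Other lists of mitochondrial genes also had medians above 0 between replicates, and their higher calls stand beside 15.6% of all genes and 26.2% of the genes of like level. ATP synthase genes had a median of 0.16, with 3 of 16 called higher, 18.8%, and 1 lower. ATP5B, the catalytic beta subunit, stood at 214, 248 and 239 FPKM and at 318, 304 and 335 (0.45 ± 0.07), and ATPIF1, the inhibitor of the enzyme, was called lower (-0.29 ± 0.08). TCA cycle enzymes had a median of 0.21 with 5 of 17 called, 29.4%, all higher, and assembly factors of the chain a median of 0.17 with 12 of 42 called higher, 28.6%, and 4 lower. Among the assembly factors SDHAF4, which helps flavinated SDHA into complex II, fell from 10.2, 11.3 and 11.5 FPKM to 4.91, 4.46 and 4.43 (-1.10 ± 0.10), and COX20, which handles a core subunit of complex IV, rose from 6.58, 8.56 and 7.77 to 13.1, 13.9 and 13.5 (0.76 ± 0.10). Of 77 mitochondrial ribosomal proteins 24 were called higher, 31.2%, and 2 lower, with a median of 0.20.

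Between MSX2_KO and WT none of these lists had a call without the block. Their medians were 0.09 for ATP synthase, 0.09 for TCA enzymes, 0.06 for assembly factors, 0.05 for the regulators and 0.19 for mitochondrial ribosomal proteins. Cytosolic ribosomal proteins, which are not mitochondrial, had a median of 0.23, with 78 of 79 above 0 and 43 at an unadjusted p under 0.05. With the block, where 6.11% of all genes were called higher, 28 of the 79 cytosolic ribosomal proteins, 35.4%, were called higher. So were 5 of 77 mitochondrial ribosomal proteins (MRPL3, MRPL39, MRPL52, MRPS26 and MRPS33), 6.49%, 2 of 16 ATP synthase genes (ATP5A1 and ATP5G3), 12.5%, 1 of 17 TCA enzymes (MDH2), 1 of 17 regulators (TFB2M) and 1 of 42 assembly factors (COX17). An upward median in MSX2_KO was thus not confined to the respiratory chain genes.

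Tissue-specific forms of complex IV subunits were near 0 in these cells. COX4I2, COX6A2, COX6B2, COX7A1, COX7B2 and COX8C had means under 0.5 FPKM and were not tested, and COX8C was listed at 0 in all 6 libraries. NDUFA4L2, a relative of NDUFA4, was at 1.09 FPKM on average. The forms listed among the 57 members were therefore those with the higher level in each of these pairs, as with COX4I1 at 380 FPKM against COX4I2 at 0.10.

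Markers of cell types differed between the genotypes beside these results. Summed FPKM of 8 endothelial markers was 2399 and 2535 in WT and between 1540 and 1909 in MSX2_KO, with 2 of 8 called lower. That of 8 hematopoietic markers was 81.4 and 130 in WT and between 157 and 251 in MSX2_KO, with 1 of 7 tested called higher, and that of 8 mesenchymal markers was 132 and 189 in WT and between 368 and 415 in MSX2_KO, with 2 of 6 tested called higher. These calls stand beside 0.963% of all genes called higher and 0.321% called lower. With the block, 6.11% of all genes were called higher and 3.74% lower. In that fit 6 of 8 endothelial markers were called lower, and 6 of 7 hematopoietic and 4 of 6 mesenchymal markers higher. So were 1 of 5 pluripotency and 2 of 4 cardiomyocyte markers. PECAM1, which encodes CD31, was at 258 and 218 FPKM in WT and between 186 and 230 in MSX2_KO, so the defining marker was present in all 6 libraries. Between replicates, where 15.6% of all genes were called higher and 18.9% lower, 5 of 7 tested hematopoietic, 3 of 8 endothelial and 2 of 5 pluripotency markers were called higher in replicate 2 and 1 of 6 mesenchymal markers lower. The other 3 pluripotency markers tested were lower in replicate 2 without a call, and the median log2 difference of the 5 was -0.49. The 8 pluripotency markers summed to between 69.9 and 104 FPKM, with NANOG, SOX2 and PRDM14 listed at 0 in at least 1 library, and the 8 cardiomyocyte markers summed to between 1.84 and 14.4, with MYL7 and NPPA listed at 0 in at least 1. The part of these markers in the values of the respiratory chain genes was not tested. For MSX2 itself the table gives 3.64 and 1.44 FPKM in the WT libraries and 18.0, 5.62, 31.8 and 6.69 in the knockout libraries, and since the edit lies within an exon its RNA level does not check the genotype labels.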

How the data were processed

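RNA-seq of 6 libraries was analysed from 1 table of FPKM values that the authors deposited, with 1 column per library and replicates not pooled. The submitters' processing notes name BWA, Bowtie, RSEM and hg19, the design text of the series names TopHat and Cufflinks, and which of them made the table, with which annotation, is not given in the sources used here. FPKM is relative to each library's total, and the number of reads is unknown, so no interval or detection limit that needs counts is given. The last row held no values and was left out. Column names give clones 1# and 2#, while the sample titles name clones 7 and 10 without a link between the pairs of names.

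The members and lists were chosen with earlier results of these data known. A symbol that stood on several rows was taken from its row of highest mean. Genes whose mean reached 0.5 FPKM, 15895 in number, were transformed to log2(FPKM + 1) and fitted by limma 3.58.1 in R 4.3.3 (moderated by empirical Bayes, trend on), and p-values were adjusted over all of them by the Benjamini-Hochberg method. A fold on this scale understates the change of low genes. MSX2_KO (4 libraries) was compared with WT (2), replicate 2 (3) with replicate 1 (3) with genotype in the model, and the interaction of both was fitted. Standard errors and p-values measure the spread between these libraries, which may be technical. The replicate numbers paired the libraries, since each carries a set letter in the labels and the deviations of same-numbered libraries of different lines correlated by 0.508, 0.540 and 0.636 over the tested genes. The fits were tested on simulated data. Alternatives tried were a block for the replicate number, 0.1 as pseudocount, a minimum mean of 5 or none, median-ratio scaling, rescaling to TPM, no trend, genotype left out, the MSX2_KO libraries alone, and each library left out.

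Named members were, in each complex and comparison, those called (up to the 4 with the lowest adjusted p) or else the highest and the lowest difference, and always NDUFS1, NDUFV1, NDUFAB1, SDHA, SDHB, UQCRC1, UQCRFS1, CYC1, COX4I1, COX5A and COX7C, and from the lists the isoform and regulator genes called. Other names were chosen after their values were seen. Promoter windows are from RefSeq (GRCh38.p14), and no coordinates were converted between builds.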

Additional observations from a re-analysis of the deposited data

Results flagged for a closer look

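In 2 of the 57 members, 1 of the 4 MSX2_KO libraries stood far from the other 3, judged by the gap to its nearest neighbour as a share of the whole range, against Dixon's 95% limit for 4 values. NDUFB3, an accessory subunit of complex I, was at 44.4 FPKM in 1# replicate 2 and between 47.4 and 47.7 in the other 3, a gap of 0.913 of the range. NDUFB6, another accessory subunit, was at 25.1 FPKM in 2# replicate 1 and between 30.9 and 31.5 in the other 3, a gap of 0.898 of the range. Chance alone flags about 1 group in 20, and 2 of 57 is no more than that.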

How the results depend on the processing

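With the replicate block, 1566 genes and 2 members were called between MSX2_KO and WT, in place of 204 and 0. With the other settings unchanged, the block changed no other member's call. Without a filter 125 genes were called, and with 1 library left out 11 to 76. The members' median difference between genotypes was 0.037 to 0.145 with 1 library left out, and 0.097 to 0.138 when the block was kept as well, which was chosen after the data were seen. Between replicates, 3112 genes and 3 members were called with genotype left out, 3593 and 8 without a filter, 8 members in the MSX2_KO libraries alone and 6 without the trend, and 3091 to 4707 genes and 3 to 10 members with 1 library left out, in place of 5492 and 15. The interaction called 3 genes, 0 with a pseudocount of 0.1 or TPM, 693 without a filter and 13 without the trend. The causes were not tested.

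Signs turned for uncalled differences near 0. Over all 57 members, 44 had a difference above 0 between genotypes, 39 with median-ratio scaling and 36 with TPM, the sign turning in 5 and 8 of them, and 44 had one above 0 between replicates, 53 with median-ratio scaling and 37 with TPM, the sign turning in 9 and 7. Among the members named by the rule, between genotypes these were NDUFS3 (-0.018 with median-ratio scaling, -0.048 with TPM) and UQCRFS1 (-0.024 with TPM), and over the fits with 1 library left out NDUFC2 ran from -0.048 to 0.303, NDUFS3 from -0.192 to 0.216, UQCRC1 from -0.116 to 0.041, UQCRFS1 from -0.087 to 0.153, COX4I1 from -0.144 to 0.087 and COX8A from -0.046 to 0.308. Between replicates these were NDUFB2 (0.022) and NDUFV1 (0.063) with median-ratio scaling and COX7C (-0.046) with TPM, and over the fits with 1 library left out NDUFV1 ran from -0.032 to 0.014, COX4I1 from -0.0044 to 0.121 and COX7C from -0.017 to 0.047. Over the alternatives, values of the members named by the rule were counted. Between genotypes 259 kept their direction and their side of the threshold, 12 turned and 2 gained a call. Between replicates 185 kept both, 13 turned, 4 gained a call and 50 lost it. Only members called in the main fit could lose a call.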
